A study of Mus musculus with 8 samples.

Results

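The sites described here are adenosines that carried an m6A call in EPSC and had no call at the same position and strand in any of the 4 deposited TBLC site lists. They number 3028 of the 19342 sites in the EPSC table, or 15.7%, and are called unlisted sites below. The other 16314 sites were in at least 1 TBLC list and are called listed sites. N6-methyladenosine (m6A) was measured with GLORI, a chemistry that turns unmethylated adenosine into a base read as guanosine, so that the level of a site is its A reads divided by its A and G reads. The EPSC libraries carried dCas13b-FTO, a catalytically dead RNA-guided Cas13b joined to the m6A demethylase FTO, with either a guide against Gata6 (sgGata6) or a control guide (sgCtrl). Every EPSC library, sgCtrl included, therefore carried the demethylase fusion. The TBLC libraries were made from cells in MYCP medium after siRNA against Virma (siVirma) or a control siRNA (siNC). All cells were mouse, and the labels give neither the strain, nor the driver of the fusion, nor whether replicates were separate cultures. Each group had 2 libraries, but the EPSC table gives 1 pooled value per group, so EPSC values carry no SD, and Wilson intervals cover counting error only.

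As background, m6A on mRNA is placed by a nuclear methyltransferase complex, built around a catalytic subunit, its partner and the scaffold protein Virma, mostly at adenosines of a short consensus. Such sites gather in long internal exons and near stop codons, and in pluripotent cells m6A is known to shorten the life of transcripts of many regulators. Demethylation by FTO removes the mark, and in GLORI an adenosine that escapes conversion for any other reason is counted as methylated too. The positions are given in mm39, the build named in the submitters' processing notes. No genome of that build was used here, so exons, UTRs and sequence context are not stated.

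In the pooled EPSC table, 24 of 27 naive pluripotency genes had a listed site, among them genes with unlisted sites such as Pou5f1 and Sox2, which encode core pluripotency factors. Of 20 fibroblast markers, 2 had a listed site, and so did 9 of 23 primitive endoderm genes and 4 of 13 primed epiblast genes. It was 4 of 20 for genes of the 2-cell stage program and 0 of 14 for trophectoderm genes. Of all 10609 genes named in the TBLC lists, 4599 had a listed site in EPSC. A site call needs both a transcript and methylation, so a missing call does not show that a gene was silent. In such bulk samples, fewer cells of a type and less RNA per cell cannot be told apart. The EPSC table held 1044927 A+G reads over its sites in sgGata6 and 964966 in sgCtrl, of which 317915 and 362146 fell on unlisted sites.

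Unlisted sites had low levels. Among the 2220 sites covered by 20 or more A+G reads in both groups, the median level was 0.0647 in sgGata6 (quartiles 0.0159 and 0.128) and 0.127 in sgCtrl (quartiles 0.105 and 0.167). Among 7965 listed sites with the same minimum, it was 0.29 in sgGata6 and 0.281 in sgCtrl. Both groups were under 0.2 at 81.5% of the unlisted sites, against 22.1% of the listed ones. Both groups were at 0.5 or more at 34 unlisted sites (1.53%), against 24.6% of listed sites. Summed over reads, the level of the unlisted sites was 0.0957 in sgGata6 (95% Wilson interval 0.0946 to 0.0967) and 0.137 in sgCtrl (0.136 to 0.138). Sites with at least 1000 reads in each group weigh heavily in those sums, since 16 of them held 51.3% of the reads on unlisted sites.

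**Figure D1:**
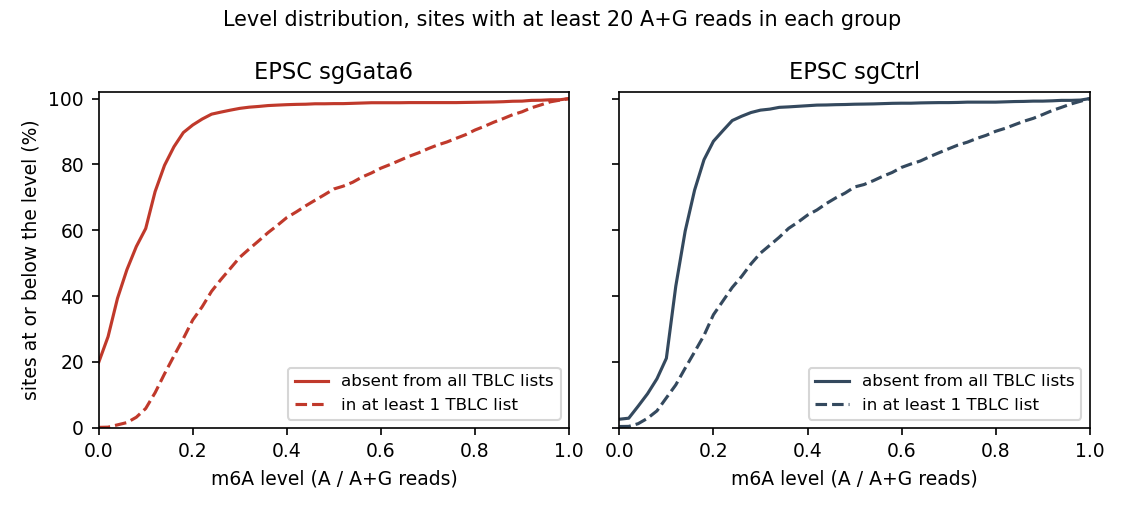
Share of EPSC sites (vertical axis, percent) at or below each m6A level (horizontal axis), for sites of 20 or more A+G reads in both groups, in sgGata6 (left) and sgCtrl (right). Solid lines are the 2220 sites absent from all TBLC lists and dashed lines the 7965 sites in at least 1 list; the solid lines climb at lower levels in both groups, and in sgGata6 the solid line starts at 19.9% because that share of the sites had no A read.

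Unlisted sites had more reads in EPSC than listed ones, and since 5 A reads were required, a site of low level needed more reads to enter the table. Over all 3028 unlisted sites, the median coverage was 42 A+G reads in sgGata6 and 35 in sgCtrl, and over the listed sites it was 27 and 21. The minimum of 20 reads in each group was met by 73.3% of the unlisted sites and by 48.8% of the listed ones. Among listed sites, the level was higher the more TBLC lists held a site. For sites in 1 list the median level was 0.138 in sgGata6 and 0.125 in sgCtrl, and it was 0.172 and 0.167 for sites in 2 lists, 0.25 and 0.24 in 3, and 0.537 and 0.529 in all 4. The sites nearest to the rule, the 1022 in exactly 1 list, had nearly the median of the unlisted ones in sgCtrl. In sgGata6 the medians were 0.0647 at unlisted sites and 0.138 at sites in 1 list. Of the 2220 unlisted sites behind the 0.0647, 1373 met the minimums of the table, given below, in sgCtrl only. Their sgGata6 median was 0.0256, so the rule of the table lowers the unlisted median, and nothing is read from this gap. The 342 unlisted sites that met the minimums in both groups had medians of 0.159 in sgGata6 and 0.175 in sgCtrl. The 1022 sites came from siNC replicate 1 (523 sites, with a median TBLC level of 0.143) and siNC replicate 2 (427 sites, 0.135) more often than from siVirma replicate 1 (55) and siVirma replicate 2 (17).

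**Figure D2:**
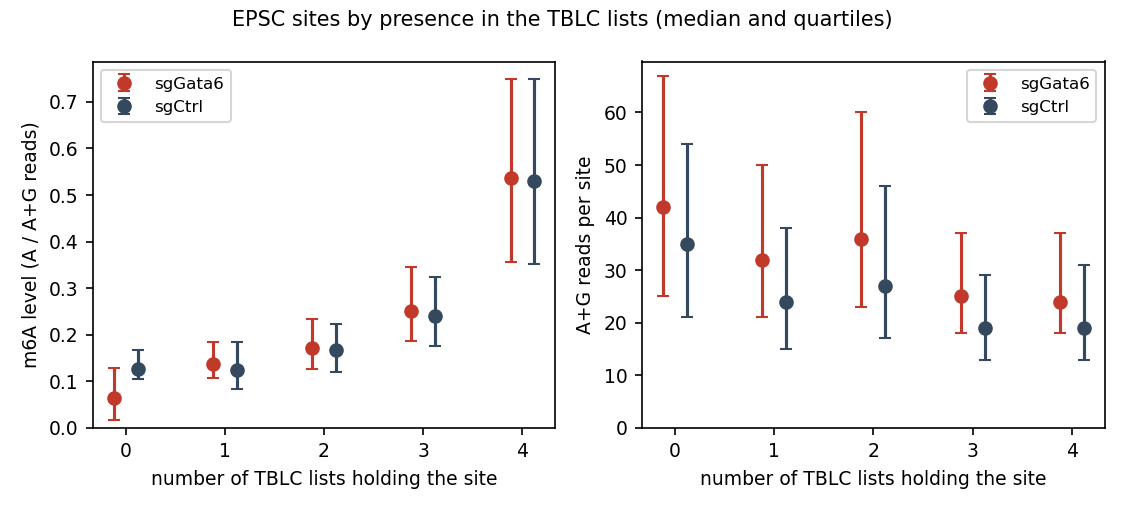
Median (points) and quartiles (bars) of the m6A level at sites of 20 or more A+G reads in both groups (left), and of the A+G reads per site over all sites (right), by the number of TBLC lists holding an EPSC site, for sgGata6 and sgCtrl. At 0 lists the median level was 0.0647 in sgGata6 and 0.127 in sgCtrl, with 42 and 35 reads.

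Few unlisted sites passed the calling minimums in both EPSC groups. The lists and the table hold sites with at least 15 A+G reads, 5 A reads and a level of 0.1, and a row of the EPSC table needs this in at least 1 group. Of the unlisted sites, 377 (12.5%) passed in both groups, 987 (32.6%) in sgGata6 only and 1664 (55.0%) in sgCtrl only. Of the listed sites, 49.7% passed in both groups, 38.1% in sgGata6 only and 12.2% in sgCtrl only. The unlisted sites that passed in sgCtrl only had a median level of 0.0256 in sgGata6 and 0.136 in sgCtrl, with a median of 47 and 40 reads. Those that passed in sgGata6 only had a median of 0.133 in sgGata6 and 0.0667 in sgCtrl, with 34 and 21 reads. A site that passed in 1 group only is high there because of the rule of the table, so these differences carry no test.

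A level of exactly 0 was frequent in sgGata6. Among the 2220 sites, 441 (19.9%) had no A read in sgGata6 while passing in sgCtrl, at a median of 44 reads in sgGata6 and 38 in sgCtrl. The opposite, a pass in sgGata6 with no A read in sgCtrl, was seen at 58 sites (2.61%). Among the listed sites these were 11 (0.138%) and 32 (0.402%). A level of at most 0.05 in sgGata6 was held by 44.5% of the unlisted sites and 1.33% of the listed ones, and in sgCtrl by 8.96% and 2.32%. By the rule of the table a site at 0 in 1 group had to pass in the other, and more unlisted sites passed in sgCtrl only than in sgGata6 only, so nothing is read from this difference between the groups.

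The values of the groups are set side by side here as a description. Of the 2220 unlisted sites, 1373 had to be high in sgCtrl and below the minimums in sgGata6 and 505 the reverse, which widens the spread, while keeping sites that passed in both narrows it. The median difference, sgGata6 minus sgCtrl, was -0.0756 over the 2220 sites, and 71.3% were lower in sgGata6. Over the listed sites it was 0.0039, with 48.0% lower. The SD of the difference was 0.0978 at unlisted sites, 1.49 times the 0.0656 that binomial counting alone gives, and it was 0.105 at listed sites, 1.09 times the binomial value. Across sites, Pearson's r between the groups was 0.652 (n = 2220) and Spearman's rho -0.139, against 0.915 and 0.839 at listed sites (n = 7965). These correlations are descriptions over sites that share the same libraries. Among the 342 unlisted sites with 20 reads that passed in both groups, the median level was 0.159 in sgGata6 and 0.175 in sgCtrl and the median difference was -0.00587. Their SD of 0.0697 was 0.916 times the binomial value, r was 0.949 and rho was 0.694. For the 6064 listed sites that passed in both groups, the median difference was -0.00255 and the ratio of the SD to the binomial value was 1.002.

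**Figure D3:**
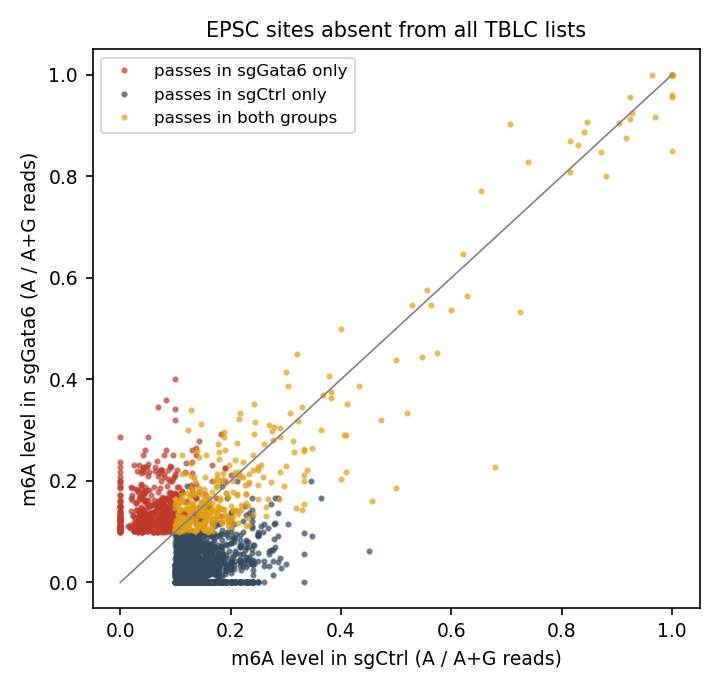
m6A level in sgGata6 (vertical axis) against sgCtrl (horizontal axis) at the 2220 unlisted sites of 20 or more A+G reads in both groups, coloured by the group in which the calling minimums were met; the grey line marks equal levels. Sites that passed in both groups follow the line (r = 0.949), and those that passed in sgCtrl only form the dense band at a sgGata6 level near 0.

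The reads of each site were compared between sgGata6 and sgCtrl with Fisher's exact test, two-sided, with Benjamini-Hochberg adjustment over all 10185 EPSC sites tested. The test compares the pooled reads and not the conditions. It called 28 sites, 0.275% of those tested, and 24 of them were unlisted sites, 1.08% of the 2220. Of the 24, 23 were lower in sgGata6, a direction with 0.255% of all sites called, and 1 was higher, with 0.0196% called. Of the 23, 19 had passed the minimums in sgCtrl only, so that the table's rule fixed their direction. Of the 342 tested sites that passed in both groups, 4 were called lower and 1 higher. At an unadjusted p under 0.05, 707 unlisted sites were lower in sgGata6 (9.13% of all sites tested were) and 48 were higher (2.62% of all sites), against 223 and 219 listed sites. Of the 707, 694 had passed in sgCtrl only, and of the 48, 44 in sgGata6 only, while among sites that passed in both, 13 were lower and 4 higher. Nothing is read from these directions, nor from the lower and higher sites given further on, whose directions rest largely on the same rule. Of the 24 called sites, 11 had at least 1000 reads in each group, 3 were spanned by a gene and 9 lay over 10000 nt from any TBLC site. When the binomial error was scaled to the spread seen over all sites, 7 unlisted sites were called, all among the 24 and all lower in sgGata6. With a minimum of 50 reads in each group, 73 were called, and without the sites of at least 1000 reads 13 were called.

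The largest called difference was on chromosome 2 at 166838073, minus strand, with no spanning gene. It had 3 of 48 reads unconverted in sgGata6, a level of 0.0625, against 18 of 40 in sgCtrl, a level of 0.45 (Fisher's exact adjusted p = 0.0131). A site within Ncl, which encodes the nucleolar protein nucleolin, on chromosome 1 at 86284027, had 4 of 154 reads in sgGata6 and 21 of 119 in sgCtrl. Its levels were 0.026 and 0.176 (Fisher's exact adjusted p = 0.0126). The other called sites with a gene, described after their values were seen, were within the predicted genes Gm6368 on chromosome X at 140764413 and Gm6789 on chromosome 18 at 63677219, and were at 0.00518 and 0.0105 in sgGata6 and at 0.123 and 0.121 in sgCtrl. Reads of predicted genes can be shared with related copies, so those values are uncertain. On chromosome 2 at 130723215 the count was 0 of 98 in sgGata6 and 10 of 70 in sgCtrl, and on chromosome 4 at 126573594 it was 6 of 248 and 41 of 298. In each of these 6 sites the Wilson intervals of the groups did not overlap. They were chosen as called sites, so this adds no support to the calls.

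The sites with the most reads showed smaller differences than the called sites above. Those were chosen for large falls, so nothing is read from the contrast. The deepest, on chromosome 16 at 10961996, plus strand, lay 69313 nt from the nearest TBLC site and had 3627 of 63362 reads unconverted in sgGata6 and 11669 of 112640 in sgCtrl. Its levels were 0.0572 and 0.104, so that sgGata6 had 55.3% of the sgCtrl level. On chromosome X at 21546813, minus strand, the level was 0.204 in sgGata6 (4410 of 21609) and 0.186 in sgCtrl (4971 of 26685), which was the called rise (Fisher's exact adjusted p = 0.000653). On chromosome 13 at 54343998 the levels were 0.189 in sgGata6 and 0.174 in sgCtrl (Fisher's exact adjusted p = 0.13). The sites on chromosome 10 at 11367888 and chromosome 6 at 44770158 had levels of 0.112 and 0.0745 in sgGata6, and 0.194 and 0.115 in sgCtrl. Of the 16 unlisted sites with at least 1000 reads in each group, 12 were lower in sgGata6 and 10 of these were called, with a median difference of -0.0426. Of the 12 listed sites of that depth, 8 were lower, 3 were called, and the median difference was -0.00385. At any depth, 0.275% of all sites tested and 1.08% of the unlisted ones were called. Several of the deep called sites, among them those on chromosomes 16 and 6 above, were under 0.1 in sgGata6 and passed in sgCtrl only. The rule of the table fixed their direction, so nothing is read from the comparison with listed sites.

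A group of 4 called sites, of which the first 2 and the last were picked out after their values were seen, lay on the plus strand of chromosome 17, at 40154592, 40154951, 40155453 and 40155787. Their levels were 0.256, 0.0735, 0.102 and 0.0493 in sgGata6 and 0.315, 0.129, 0.154 and 0.118 in sgCtrl. All 4 were lower in sgGata6, by 0.0517 to 0.0685. Those at 40154951 and 40155787 were under 0.1 in sgGata6 and passed in sgCtrl only, so the rule of the table fixed their direction. The 4 sites lay 3268 to 4463 nt before listed sites of the predicted gene Gm26917, at 40159055, 40159073 and 40159074. Those listed sites were also called and lower in sgGata6, at 0.837, 0.468 and 0.552 against 0.895, 0.575 and 0.673 in sgCtrl. None of the 4 had a spanning gene.

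A small part of the unlisted sites had a high level in both groups. With at least 15 reads in each group, 41 of 2513 unlisted sites (1.63%) had a level of 0.5 or more in both, against 26.9% of listed sites; these 41 were chosen after their values were seen. Their median level was 0.875 in sgGata6 and 0.88 in sgCtrl, and 17 were at 0.9 or more in both groups. Of the 41, 34 had enough reads for Fisher's exact test, and 0 were called. Over all EPSC sites tested 0.275% were called, and 1.08% of the unlisted ones, shares too small to expect a call among 34. Differences ran from -0.192 to 0.196, with both groups held at 0.5 or more by the choice of the sites. Their positions were remote from the TBLC calls. Of the 41, 36 had no spanning gene and 32 lay over 10000 nt from any TBLC site, with a median distance of 79057 nt. Those with a gene included sites in Coro1c, which encodes an actin-binding coronin (0.8 in sgGata6 and 0.88 in sgCtrl), Fbxl19, which encodes an F-box protein (0.903 and 0.707), Ccdc88c (0.684 and 0.533) and the imprinted long noncoding RNA Meg3 (0.532 and 0.724).

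Among sites with at least 50 reads in each group, the 6 highest were all without a spanning gene. On chromosome 4 at 26524477, plus strand, every read was unconverted, 231 of 231 in sgGata6 (Wilson interval 0.984 to 1) and 196 of 196 in sgCtrl (0.981 to 1). The nearest TBLC site on that strand was 1079531 nt away. On chromosome 12 at 29924039 the level was 0.957 in sgGata6 and 0.924 in sgCtrl, and on chromosome 1 at 138870159 it was 0.925 and 0.927. On chromosome 17 at 79040450 it was 0.912 in sgGata6 and 0.923 in sgCtrl, on chromosome 9 at 123829931 it was 0.906 and 0.846, and on chromosome 13 at 48062263 it was 0.887 and 0.84. In each of these sites the intervals of the groups overlapped. At the other end, the 6 lowest sites had 0 or 1 A read in sgGata6 and 5 to 8 in sgCtrl, such as 0 of 111 and 5 of 50 on chromosome 4 at 116498287. Every site had to pass in at least 1 group, so a ranking by low level picks such sites, and nothing is read from their direction.

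Of the 41 high sites, 6 formed 3 pairs with a near-constant spacing. On chromosome 11 the sites at 10901072 and 10901088 were 16 nt apart, with 28 of 28 reads unconverted at each in sgGata6, and 22 of 22 and 24 of 24 in sgCtrl. On chromosome 15 the sites at 44240196 and 44240212 were also 16 nt apart, with 15 of 16 at each in sgGata6 and 15 of 15 in sgCtrl. On chromosome 19, minus strand, the sites at 7699972 and 7699989 were 17 nt apart, with 29 of 29 and 31 of 31 in sgGata6 and 30 of 30 and 35 of 35 in sgCtrl. Sites this close can share reads. These pairs lay 43331 to 425886 nt from the nearest TBLC site.

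Unlisted sites were more scattered than listed ones. The median distance to the nearest TBLC site on the same strand was 484 nt, against 40 nt to the nearest other TBLC site for listed sites. Within 100 nt there was a TBLC site for 32.0% of the unlisted sites and 76.1% of the listed ones, and 26.4% and 3.87% had none within 10000 nt. With sites at most 100 nt apart joined into runs within each set, 17.97% of the unlisted and 54.5% of the listed sites had a neighbour of their own set. The listed set is the larger, which raises its share. Counting any other EPSC site within 100 nt, the shares were 36.9% of the unlisted and 56.8% of the listed sites. At the shortest range the order turned. Another EPSC site lay within 2 nt for 92 unlisted sites (3.04%) and for 37 listed sites (0.227%). Among the 78 such unlisted sites with 20 reads, the median level was 0.0408 in sgGata6 and 0.134 in sgCtrl, and 88.5% were lower in sgGata6. Among the 16 such listed sites it was 87.5%.

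**Figure D4:**
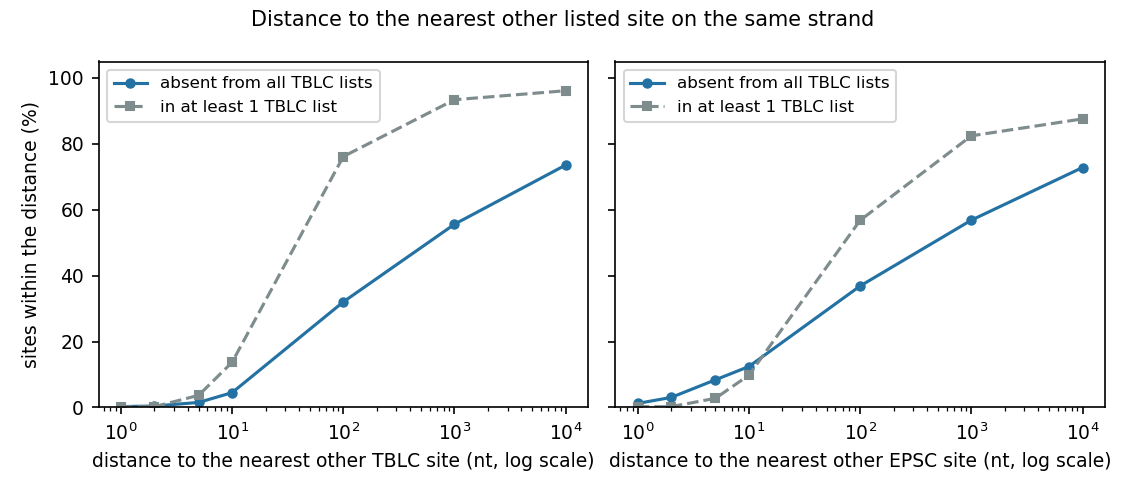
Share of sites (vertical axis, percent) with another site on the same strand within a given distance (horizontal axis, nt, log scale), for the nearest other TBLC site (left) and the nearest other EPSC site (right). At 100 nt the share with a TBLC neighbour was 32.0% for unlisted and 76.1% for listed sites, while within 2 nt of another EPSC site the unlisted sites had the higher share (3.04% against 0.227%).

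The 4 runs with the most unlisted sites were short. On the plus strand of chromosome X, 8 sites lay between 100749308 and 100749582, with levels of 0.111 to 0.273 in sgGata6 and 0.0909 to 0.438 in sgCtrl, and 4 of the 8 were lower in sgGata6. The last 4 sites of this run lay exactly 170 nt after the first 4, site by site. At Tpt1, a translationally controlled growth-related gene, 7 sites lay between 76085604 and 76085694 on chromosome 14, of which the first 2 were spanned by Tpt1. Levels there ran from 0.00826 to 0.144 in sgGata6 and from 0.103 to 0.169 in sgCtrl, and 6 of 7 were lower in sgGata6. At 4 consecutive adenosines in this run, 76085689 to 76085692, the levels were 0.0228, 0.0614, 0.0323 and 0.0872 in sgGata6 and 0.134, 0.167, 0.103 and 0.169 in sgCtrl. The first of them was called by Fisher's exact test (adjusted p = 0.00415). The runs of 5 sites on chromosome 3 (59339341 to 59339348) and chromosome 10 (127921924 to 127921935) were lower in sgGata6 at 4 of 5 sites each.

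The gene whose TBLC sites span a position was used as its name. Of the 3028 unlisted sites, 1395 (46.1%) were spanned on the same strand, 1392 by 1 gene and 3 by 2 genes, and 1633 (53.9%) by none. Of the listed sites, 95.6% were spanned. The 1392 sites fell in 909 genes, 10.8% of the 8432 genes with at least 2 listed TBLC positions, and 632 genes held 1 site each. Long spans catch more sites: the median span was 12424 nt for the genes with an unlisted site and 2322 nt for all. Spanned sites with 20 reads had a median level of 0.0785 in sgGata6 and 0.125 in sgCtrl, and sites without a gene 0.0559 and 0.128. Within genes, unlisted sites were below listed ones: of 571 genes with both kinds at 20 reads, 545 (95.5%) had the lower median at the unlisted sites, 0.0976 against 0.259 over genes.

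The spanning genes were well covered in the TBLC libraries. The gene coverage given in the TBLC lists had a median over genes with an unlisted site of 85.2 and 73.2 in the siVirma libraries and of 75.9 and 73.2 in the siNC libraries. Genes with listed EPSC sites alone had medians of 57.4 and 49.3 in siVirma and of 50.0 and 48.0 in siNC. The EPSC level over both groups, times the gene coverage of a TBLC library, gives the A reads that the same level would have there. Of the sites spanned by 1 gene, at any level, 55.5% and 53.9% in the siVirma libraries had both a level of 0.1 or more and a product reaching 5 A reads. In the siNC libraries the shares were 52.6% and 52.2%, and by the rule none of these sites was listed. The median product was 12.17 and 10.55 in siVirma and 10.53 and 10.15 in siNC, so levels under 0.1 also keep sites out of these shares. For listed sites the shares meeting both were 97.8% and 97.3% in siVirma, where 68.3% and 67.7% were listed. In siNC they were 97.0% and 96.9%, where 95.6% and 94.1% were listed. Coverage at a site can differ from that of its gene, and its part in the absence of these sites was not tested.

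The 8 genes that spanned the most unlisted sites held 61 of them, and 41 were lower and 20 higher in sgGata6. Of the 58 that were tested, 0 were called, and the lowest Fisher's exact adjusted p was 0.0573. Over all genes 3 of 1051 tested sites were called, a share too small to expect a call among 58. Txnip, which encodes an arrestin-family inhibitor of thioredoxin and glucose uptake, held 9 sites between 96465456 and 96468721 on chromosome 3. Their levels were 0.0524 to 0.191 in sgGata6, with a median of 0.101, and 0.0524 to 0.128 in sgCtrl, with a median of 0.11. At the deepest Txnip site, 96465456, 39 of 385 reads were unconverted in sgGata6 and 11 of 210 in sgCtrl. At 96468402 it was 11 of 210 in sgGata6 and 11 of 86 in sgCtrl, so that sites of the gene differed in direction, and neither difference was called. The 11 listed EPSC sites of Txnip had medians of 0.363 in sgGata6 and 0.337 in sgCtrl, above the medians of all listed sites.

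Slc2a3, a glucose transporter gene, held 8 sites on chromosome 6 with medians of 0.128 in sgGata6 and 0.118 in sgCtrl. Its site at 122705592 had 23 of 272 reads in sgGata6 and 39 of 378 in sgCtrl, and that at 122708484 had 22 of 207 and 35 of 343. These 2 Slc2a3 sites had levels of 0.0846 and 0.106 in sgGata6 and 0.103 and 0.102 in sgCtrl. The sites at 122706039 and 122706813 were lower in sgGata6, with 15 of 119 and 6 of 140 reads in sgGata6 and 37 of 160 and 20 of 191 in sgCtrl, and neither was called (Fisher's exact adjusted p = 0.338 and 0.386). Slc2a3 coverage in TBLC was 496 and 399.5 in siVirma and 447 and 435 in siNC. The lists of the 4 TBLC libraries held 7, 7, 10 and 9 sites of the gene, in the order siVirma replicates 1 and 2 and siNC replicates 1 and 2.

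Among long noncoding RNAs, Meg3 held 8 sites on chromosome 12 with levels of 0.0301 to 0.532 in sgGata6 and 0 (of 4 reads) to 0.724 in sgCtrl, and 6 of the 8 were lower in sgGata6. The highest, at 109513521, had 25 of 47 reads in sgGata6 and 21 of 29 in sgCtrl, and its neighbour 12 nt before it, at 109513509, had 10 of 65 and 10 of 30. Malat1, an abundant RNA of nuclear speckles, held 7 sites on chromosome 19, and all 7 were lower in sgGata6. Malat1 levels were 0 to 0.0462 in sgGata6, with a median of 0.0133, and 0.1 to 0.156 in sgCtrl, with a median of 0.133. At 5852597 no read of 137 was unconverted in sgGata6, against 5 of 32 in sgCtrl (Fisher's exact p = 0.000186, adjusted p = 0.0573). All 7 Malat1 sites passed in sgCtrl only, a class in which 1370 of 1373 tested sites were lower in sgGata6 because of the rule of the table. Malat1 coverage in TBLC was 715 and 592 in siVirma and 627 and 629 in siNC.

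Srrm2, which encodes a spliceosome-associated protein, held 8 sites with medians of 0.062 in sgGata6 and 0.14 in sgCtrl, of which 7 were lower in sgGata6. At 24038404 in Srrm2, 0 of 68 reads were unconverted in sgGata6 and 6 of 50 in sgCtrl, while at 24043466 the counts were 16 of 107 and 14 of 93. Eif4g1, which encodes a scaffold of translation initiation, held 7 sites with medians of 0.0833 in sgGata6 and 0.111 in sgCtrl. Dync1h1, which encodes the heavy chain of cytoplasmic dynein, held 7 with medians of 0.0698 and 0.116. Dennd2c, which encodes a DENN-domain protein, held 7 with medians of 0.04 and 0.119. Its adjacent sites at 103075459 and 103075460 were at 0.231 and 0.222 in sgGata6 and at 0.0345 and 0.0714 in sgCtrl, opposite in direction to 4 of its other sites. No Dennd2c site passed in both groups, so these directions rest on the rule of the table.

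**Figure D5:**
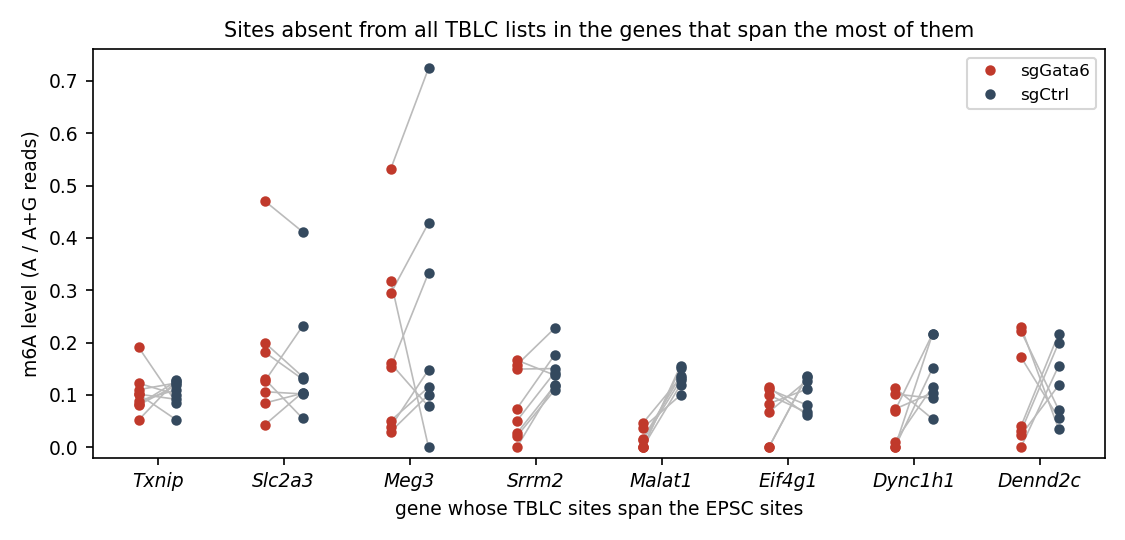
m6A level (vertical axis) of each of the 61 unlisted sites in the 8 genes that span the most of them, sgGata6 left and sgCtrl right, with a line joining the values of a site; sites of any depth are shown. In Malat1 every site was lower in sgGata6 (median 0.0133 against 0.133 in sgCtrl), and Txnip sites went both ways. Of the 61 sites, 10 passed the calling minimums in both groups. Directions at the others rest on the rule of the table, so nothing is read from this contrast between genes.

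By gene list, unlisted sites were found in 13 of 26 naive pluripotency genes with a TBLC span, 6 of 16 primitive endoderm genes and 8 of 20 FGF-ERK signalling genes, beside 10.8% of all genes. They were found in 4 of 9 m6A readers and erasers, 2 of 9 writer complex genes, 4 of 15 Wnt signalling genes, 2 of 9 nuclear long noncoding RNAs, 1 of 9 primed epiblast genes and 1 of 17 fibroblast markers. None was found in 5 trophectoderm genes or in 10 genes of the 2-cell stage program. Over these lists, 0 of 66 tested sites were called by Fisher's exact test, and over all genes 3 of 1051, a share too small to expect a call among 66. These counts were not adjusted for the coverage or the span of the genes.

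Pou5f1, the gene of the core pluripotency factor Oct4, had sites at 35817019 and 35817212 on chromosome 17. The second Pou5f1 site was deep, with 53 of 522 reads unconverted in sgGata6 and 88 of 649 in sgCtrl, levels of 0.102 and 0.136. The first had 3 of 75 and 9 of 79. Tdgf1, which encodes a Nodal co-receptor, had 9 of 168 and 2 of 117 reads in sgGata6 and 10 of 95 and 10 of 69 in sgCtrl, at 110769509 and 110775139. Over the 14 tested sites of naive pluripotency genes the median level was 0.0949 in sgGata6 and 0.136 in sgCtrl, beside 0.0784 and 0.125 over all genes. In the primitive endoderm list, the basement membrane genes Lamc1 and Lama1 held 5 and 3 sites. Lamc1 levels were 0 to 0.122 in sgGata6 and 0.0769 to 0.155 in sgCtrl, and Lama1 levels were 0 to 0.0541 and 0.152 to 0.192. Gata6, the target of the guide, had 3 sites in the table, and 0 of them were unlisted, since all 3 were in all 4 TBLC lists.

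Fn1, the gene of the matrix protein fibronectin, held all 6 unlisted sites of the fibroblast list. The site at 71648655 in Fn1 had 0 of 104 reads in sgGata6 and 8 of 72 in sgCtrl, and 5 of 6 sites were lower in sgGata6. Ctnnb1, which encodes beta-catenin of the Wnt pathway, held 5 sites. At 120788599 it had 0 of 55 reads in sgGata6 and 6 of 44 in sgCtrl, and at 120789318 it had 5 of 40 and 0 of 42. Each of these Ctnnb1 sites passed the minimums in 1 group only, so the rule of the table set its direction. In the FGF-ERK list, Egr1, an immediate early target of ERK signalling, had 10 of 16 reads in sgGata6 and 2 of 5 in sgCtrl at 34996804. Among m6A factors, the demethylase gene Alkbh5 had 0 of 43 reads in sgGata6 and 7 of 52 in sgCtrl at 60429999. The reader gene Igf2bp1 had 3 of 74 and 9 of 79 at 95848139. Both sites of Zc3h13, a writer complex subunit, were at 0.208 and 0.161 in sgGata6 and at 0.105 and 0.0909 in sgCtrl, with 19 to 31 reads. They passed in sgGata6 only, so the rule of the table set their direction. Cbll1, another gene of that complex, had 2 of 30 reads in sgGata6 and 5 of 21 in sgCtrl. The DNA methyltransferase gene Dnmt3a had 4 of 26 and 6 of 22, and the Wnt co-receptor gene Lrp5 had 3 of 29 and 5 of 34, both with the lower level in sgGata6. These sites of Cbll1, Dnmt3a and Lrp5 passed in sgCtrl only, which likewise set their direction. None of the tested sites in these genes passed Fisher's exact test after adjustment over all sites.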

How the data were processed

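GLORI libraries were made from mRNA, per the labels' protocols. The build mm39 is named in the submitters' processing notes; for the aligner and site caller, versions included, the sources used here give none. The deposited TBLC lists give counts of A+G and A reads per site, the level as a fraction, p-values with adjustment, and a signal named as the coverage of the gene, per the file headers. The p-values and conversion rates were not used. The deposited EPSC table gives A+G counts and the level pooled per group, so no replicate test was possible. A reads were recovered as their product, whole within 1e-06 at every site; 4 further deposited columns of group values, the A reads among them, are not used for the results. Unlisted sites were matched on chromosome, position and strand. Levels, differences and tests used a minimum of 20 A+G reads in each group, and coverage used every site. Fisher's exact test ran over the whole table with Benjamini-Hochberg adjustment at 0.05 and was checked on simulated data. The simulated falls were at deeper sites of higher level, without the rule of the table, so the check does not cover most unlisted sites. Wilson intervals are at 95% and cover counting error only, since reads lacking molecular identifiers can copy 1 molecule. A gene spans a site when its lowest and highest listed TBLC positions enclose it; 902 of 909 such symbols were in the name tables. Named items followed a rule: the 8 genes with most sites, called sites (6 largest falls and any rise), the 6 deepest, 6 highest and 6 lowest sites, the 4 largest runs and up to 2 genes for each of 11 gene lists; some items the rule names are not reported here. The sites, lists and rule were chosen with earlier results of these data known. Python 3.11.15, numpy 2.4.6, pandas 2.3.3, scipy 1.17.1 and matplotlib 3.10.9 were used.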

Additional observations from a re-analysis of the deposited data

How the results depend on the processing

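Without each TBLC library in turn, the number of unlisted sites was 3045 to 3551, the median level 0.0645 to 0.0795 in sgGata6 and 0.127 to 0.128 in sgCtrl, the median difference -0.0757 to -0.0654, the median coverage 40 to 42 in sgGata6 and 33 to 35 in sgCtrl, the spanned share 46.3% to 53.1%, and the called sites 24 each time. With absence from the siNC lists alone, coverage was 40 in sgGata6 and 33.5 in sgCtrl and the spanned share 48.9%. With a minimum of 10 reads, coverage was 45 in sgGata6 and 37 in sgCtrl, levels were 0.0896 and 0.133 and the difference -0.0696. With a minimum of 50, coverage was 93 in sgGata6 and 75 in sgCtrl, the sgCtrl level 0.114, the difference -0.0619 and the called sites 73. Among sites passing in both groups, the levels were 0.159 in sgGata6 and 0.175 in sgCtrl and the difference -0.00587, and from summed reads the levels were 0.0957 and 0.137. The scaled test called 7 sites, and leaving out the sites of at least 1000 reads, an alternative chosen after seeing the data, left 13. Spans extended by 5000 nt covered 69.45% of the sites, and spans from siNC alone 43.8%. The cause of these shifts was not tested beyond the change that each alternative makes. Of the values tried, 30 were classed as moved and 45 as the same, and some of the 45 are among those given above. The count of 3551 unlisted sites, reached without siNC replicate 1, was classed as the same as the 3028 of the main setting. No paired analysis was possible because the EPSC table holds 1 pooled column per group, and single EPSC libraries could not be left out.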

Other observations

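The share of unlisted sites differed between chromosomes. It was 24.0% on chromosome X (113 of 471 EPSC sites), 18.8% on chromosome 15 and 18.5% on chromosome 19, and it was lowest on chromosome 8, at 12.2% (188 of 1535). The table's only site on chromosome Y was unlisted. By strand the shares were 16.3% on plus and 14.8% on minus. Of the 85953 positions in the 4 TBLC lists together, 16314 (19.0%) were in the EPSC table. These shares were not tested.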
